A study of Mus musculus with 3 samples.

Results

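The regions described here are the calls made by chromatin immunoprecipitation with sequencing (ChIP-seq) around 10 imprinted control points of the mouse genome, those of H19, Kcnq1ot1, Peg3, Peg10, Mest, Grb10, Zrsr1, Airn, Gnas and Meg3. Members were all KAP1 peaks and H3K9me3 regions with any base within 100 kb of a point given in build mm9, whatever their score. They numbered 9 of the 19549 peaks of the KAP1 list and 48 of the 39526 regions of the H3K9me3 list. Chromatin came from proliferating C2C12 cells, an established myoblast line labelled as strain C3H, with no treatment or mutation named for any library. There was 1 library with a homemade rabbit antibody against KAP1 and 1 with a Diagenode antibody against H3K9me3, so no value carries a spread between replicates and no test between samples was possible. A library without antibody belongs to the study and has no peak list analysed here, so calls that it might share were not assessed. The lists do not separate the parental alleles, and total reads per library are not given, so the absence of a call cannot be set against a detection limit.

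At an imprinted locus, a control region of CpG-rich DNA is methylated on the copy from only 1 parent, and the genes around it are then expressed from only 1 copy. In early embryos the KRAB zinc finger protein ZFP57 binds the methylated copy at the hexamer TGCCGC and brings KAP1 (TRIM28), a corepressor. KAP1 in turn brings SETDB1, the enzyme that trimethylates lysine 9 of histone H3, and this machinery keeps the copy methylated while the rest of the genome loses its methylation. Control regions of Peg3, Peg10, Mest, Grb10, Zrsr1, Airn, Kcnq1ot1 and Gnas are known to be methylated on the maternal copy, and those of H19 and Meg3 on the paternal copy.

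RefSeq promoters (build GRCm38.p6) were available for 8 of the 10 genes; H19 and Peg10 had none in the table. The 250 bases before the start of 4 genes are printed in the direction of the gene, with TGCCGC or its reverse complement GCGGCA in capitals. Mest and Meg3 are shown because a promoter window of each held the hexamer. Peg3 is shown because a strong KAP1 peak lay at its point without it, and Kcnq1ot1 because neither list had a call near its point. Zrsr1, Airn and Grb10, not printed, also had a KAP1 peak at the point and no hexamer in a promoter window. Their positions are chr6:30737800-30738049 (plus strand) for Mest, chr12:109540746-109540995 (plus strand) for Meg3, chr7:6730420-6730669 (minus strand) for Peg3 and chr7:143296548-143296797 (minus strand) for Kcnq1ot1. These are not mm9 positions and cannot be laid over the calls.
Mest: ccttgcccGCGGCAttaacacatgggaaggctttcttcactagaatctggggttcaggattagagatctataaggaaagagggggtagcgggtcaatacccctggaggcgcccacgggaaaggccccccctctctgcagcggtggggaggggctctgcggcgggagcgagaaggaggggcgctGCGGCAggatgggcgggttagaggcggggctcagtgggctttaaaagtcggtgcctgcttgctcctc
Meg3: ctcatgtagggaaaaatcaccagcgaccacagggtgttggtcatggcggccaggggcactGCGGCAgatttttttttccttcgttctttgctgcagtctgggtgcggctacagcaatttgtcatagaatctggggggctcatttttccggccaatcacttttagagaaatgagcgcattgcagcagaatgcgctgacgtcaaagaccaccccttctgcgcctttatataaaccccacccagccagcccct
Peg3: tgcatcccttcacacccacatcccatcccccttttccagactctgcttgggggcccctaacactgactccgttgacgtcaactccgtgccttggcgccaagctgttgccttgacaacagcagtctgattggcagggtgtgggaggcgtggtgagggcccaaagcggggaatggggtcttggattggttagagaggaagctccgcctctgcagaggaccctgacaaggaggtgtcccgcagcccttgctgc
Kcnq1ot1: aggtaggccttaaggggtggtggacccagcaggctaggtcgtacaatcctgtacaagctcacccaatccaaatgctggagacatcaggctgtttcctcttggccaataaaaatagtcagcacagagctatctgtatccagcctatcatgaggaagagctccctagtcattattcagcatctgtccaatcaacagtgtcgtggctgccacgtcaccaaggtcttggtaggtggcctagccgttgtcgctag

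The printed Mest window held the hexamer at 2 places, which began 242 and 67 bases before the start. The printed Meg3 window held it once, beginning 190 bases before the start. Mest and Meg3 each also had a promoter window without the hexamer. On either strand it was present in 8.68% of the 32851 promoters of the table, and 0.874% had it more than once. Among the 6 genes with both KAP1 and H3K9me3 near their point, 2 had the hexamer in at least 1 promoter. In promoters it was 3 of 10, of which 2 are Mest starts 3 bases apart that share the same copies. Neither Kcnq1ot1 nor Gnas, the other genes with a promoter in the table, had a match. The Grb10 promoter at 12037421 to 12037670 of chromosome 11 was the richest in CpG, with 40 against a median of 6 over all promoters, and it had no match. A match is a string of letters in this window and was not tested for binding, and control regions reach beyond it.

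KAP1 and H3K9me3 were both called within 10 kb of 6 of the 10 points: Peg3, Mest, Grb10, Zrsr1, Airn and Meg3. Over the genome, 6.12% of windows of the same 20 kb length held both. Peg10 had H3K9me3 without KAP1, and H19, Kcnq1ot1 and Gnas had neither within 10 kb. The Gnas point may itself lie more than 10 kb from the control regions of its cluster, which was not checked in mm9, so its empty zone need not describe a control region. Taken singly, KAP1 lay near 6 points against 10.7% of windows, and H3K9me3 near 7 points against 22.1% of windows. Of the 7 points with H3K9me3, 6 also had KAP1, where 27.6% of all windows with H3K9me3 did. By the methylated parental copy, 5 of the 8 maternal and 1 of the 2 paternal control points had both, too few to compare, with Gnas counted among the maternal points.

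**Figure D1:**
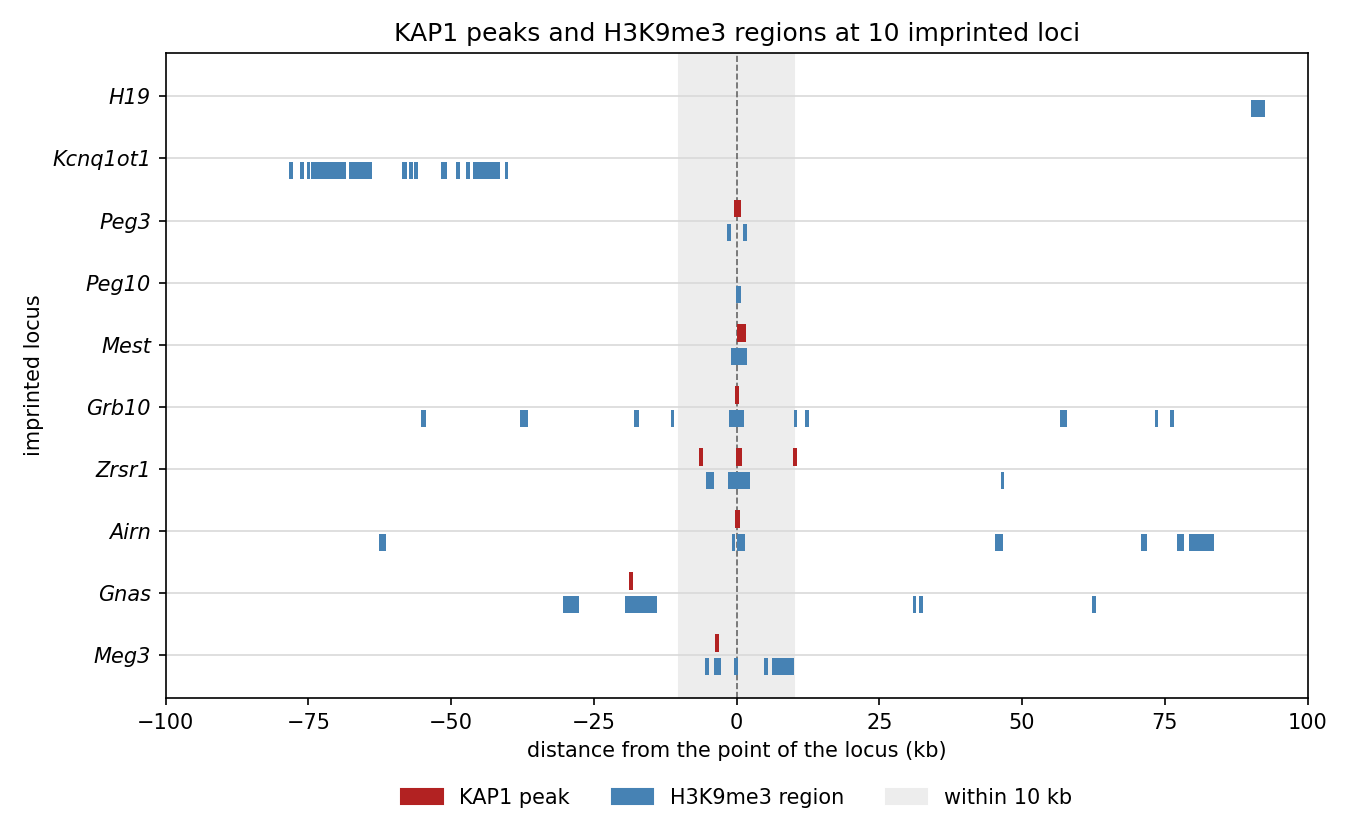
Position of every KAP1 peak (red) and H3K9me3 region (blue) within 100 kb of the 10 imprinted points; the x axis is the distance from the point in kb, each row is a locus, the shading marks 10 kb to either side, and calls narrower than 0.6 kb are drawn at 0.6 kb. KAP1 lies in the shaded zone at 6 loci and outside it only at Gnas, and a block of 13 H3K9me3 regions stands to the lower side of the Kcnq1ot1 point.

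Mest, the gene of a hydrolase-like protein expressed from the paternal copy in mesoderm, had the highest KAP1 score of the 10 loci. Its peak, chromosome 6 from 30687030 to 30688660 (mm9, as all positions from here), scored 592.7, at percentile 97.3 of the KAP1 list. A percentile here is the share of the list that scored no higher. The peak lay wholly inside an H3K9me3 region of 2670 bp, from 30686102 to 30688771, whose score of 230 stood at percentile 92.4 of its own list. No other call of either list was made within 100 kb of the Mest point, so the locus consisted of this pair alone. The nearest other KAP1 peak was 190.6 kb away.

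At Zrsr1, a splicing factor gene that lies inside an intron of Commd1 and is expressed from the paternal copy, the same pattern was embedded in a larger group. The KAP1 peak at the point, chromosome 11 from 22871853 to 22873021, scored 361.2 (percentile 93.5). It lay close to the middle of an H3K9me3 region of 3843 bp with a score of 307 (percentile 95.3), which reached 1270 bp beyond the peak on the lower side and 1404 bp on the higher side. Weaker KAP1 peaks stood 5.95 kb below the point (score 90.73, percentile 34.5) and 9.92 kb above it (score 79.83, percentile 18.8), and neither overlapped H3K9me3. The lower of them lay 628 bp from a separate H3K9me3 region of 1375 bp with a score of 102. The flanks held only a narrow H3K9me3 region of 328 bp, 46.4 kb above the point, with a score of 37. Zrsr1 was the only locus with more than 1 KAP1 peak within 100 kb. Windows of 20 kb with 3 or more KAP1 peaks made up 1.22% of the genome. That cut-off was the Zrsr1 count itself, the highest of the 10 loci. The weaker peak above the point ran from 9.92 to 10.5 kb, mostly beyond the 10 kb limit. Its score was close to the lowest of the KAP1 list, 70.

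Grb10 encodes an adaptor that restrains growth signalling by the insulin receptor, and its copies are used differently in neurons and in most other tissues. Its KAP1 peak at the point, chromosome 11 from 11925773 to 11926447, scored 252.0 (percentile 86.9). It lay wholly within an H3K9me3 region of 2587 bp with a score of 218 (percentile 91.8), 1060 bp from the lower edge and 852 bp from the higher edge. A further 9 H3K9me3 regions were spread over both flanks, 4 below and 5 above, and none of them held KAP1. Their scores were no higher than 108, less than that of the region at the point.

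Airn is a long noncoding RNA, transcribed from the unmethylated paternal copy, that silences Igf2r, the gene of the receptor that clears IGF2. The KAP1 peak at the Airn point, chromosome 17 from 12934778 to 12935662, scored 306.5 (percentile 91.0). Here the marks were offset: 65.2% of the peak was covered by an H3K9me3 region of 1314 bp (score 130, percentile 83.3) that began inside the peak and ran 737 bp past its higher end. A narrow H3K9me3 region of 391 bp (score 36) ended 143 bp before its lower end. The flanks held another 5 H3K9me3 regions, 1 below and 4 above the point, with no KAP1. In GRCm38.p6 Airn is transcribed toward the higher side. The broadest spanned 4417 bp and lay 79.2 kb above the point, with a score of 385 (percentile 97.1), higher than the regions at the point itself.

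At Peg3, a zinc finger gene expressed from the paternal copy, KAP1 and H3K9me3 lay side by side and did not overlap. The KAP1 peak, chromosome 7 from 6681624 to 6682720, scored 326.1 (percentile 92.0). The H3K9me3 regions stood 654 bp below it (638 bp wide, score 49, percentile 47.1) and 353 bp above it (753 bp wide, score 69, percentile 63.0). Of the 10926 KAP1 peaks in the genome without overlap, 0.879% had an H3K9me3 region within 1 kb on both sides as this peak had. No other call was made within 100 kb. In the GRCm38.p6 gene table Usp29, another paternally expressed gene, and the zinc finger genes Zim1 and Zim2 are the neighbours of Peg3.

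Meg3 is a noncoding RNA expressed from the maternal copy, and its cluster, which includes Dlk1 and Rtl1, is controlled from a region upstream of Meg3. The KAP1 peak lay on the lower side of the point, which in GRCm38.p6 is the upstream side, on chromosome 12 from 110766310 to 110766992. It scored 197.5 (percentile 80.4) and was the weakest of the 6 KAP1 peaks nearest to a point. It lay wholly inside an H3K9me3 region of 1321 bp with a score of 142 (percentile 85.1). All 5 H3K9me3 regions of this locus fell within 10 kb of the point, a number reached by 0.304% of 20 kb windows. That cut-off was the Meg3 count itself, the highest of the 10 loci. Gaps of only 929 and 704 bp separated some of the Meg3 regions, so their count depends on how calls were split. The broadest, 3808 bp wide with a score of 339 (percentile 96.1), began 6.23 kb above the point and had no KAP1 peak. The other regions scored 55, 32 and 59, so the strongest H3K9me3 call of the locus was not the one that held KAP1.

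**Figure D2:**
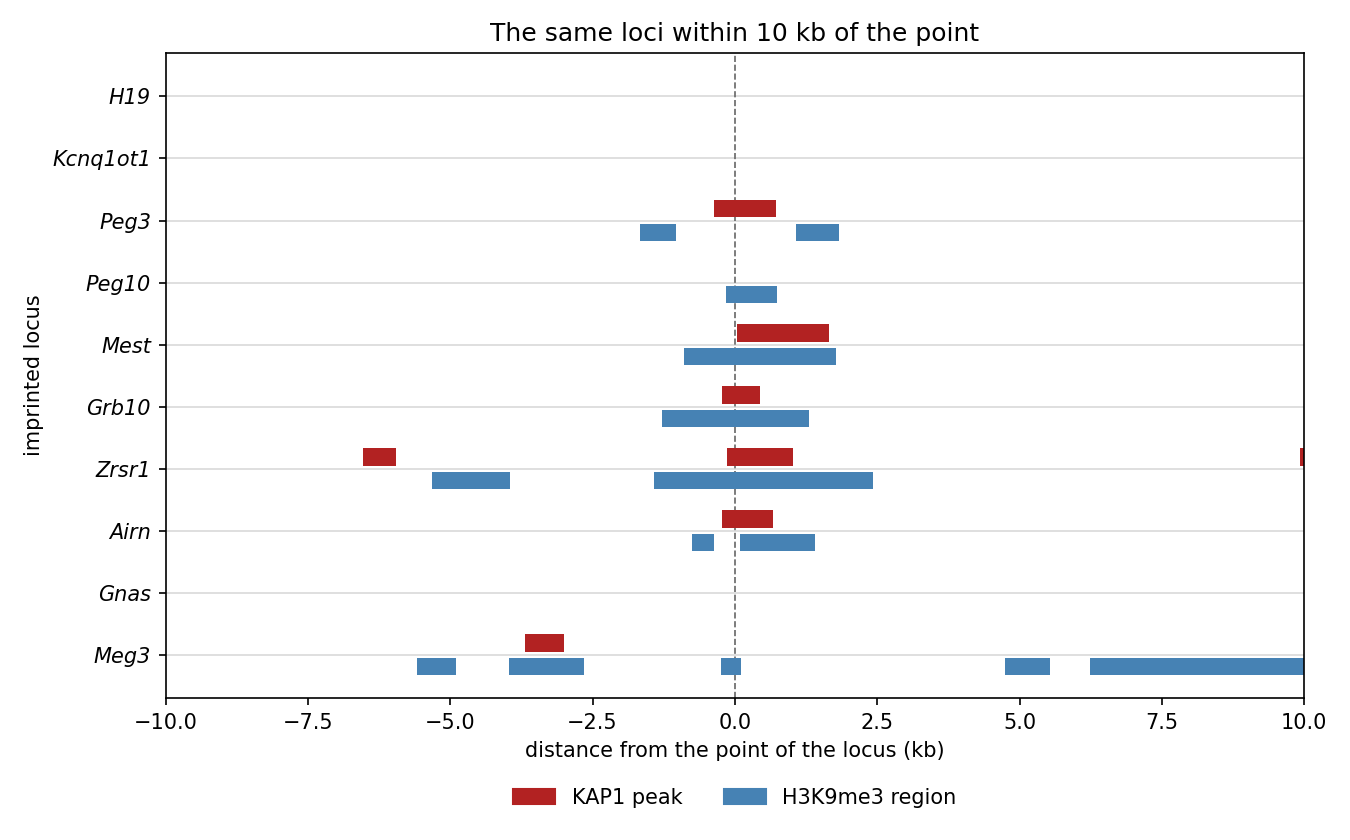
The same calls within 10 kb of each point, to scale; the x axis is the distance from the point in kb, KAP1 peaks are red and H3K9me3 regions blue. The KAP1 peak nearest to the point lies inside an H3K9me3 region at Mest, Grb10, Zrsr1 and Meg3. It is partly covered at Airn and sits between separate regions at Peg3. Both weaker Zrsr1 peaks overlap no H3K9me3 region, and the rows of H19, Kcnq1ot1 and Gnas are empty.

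Peg10, a gene derived from a retrotransposon and expressed from the paternal copy, had H3K9me3 at its point and no KAP1. The H3K9me3 region lay on chromosome 6 from 4697848 to 4698746, 899 bp wide with a score of 83 (percentile 70.4). It was the only call within 100 kb, and the nearest KAP1 peak was 216.6 kb from the point. Its score lay below those of the regions that held KAP1 at Mest, Grb10, Zrsr1, Airn and Meg3 (130 to 307), and above those of both regions beside the Peg3 peak.

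The Gnas cluster encodes the stimulatory G protein alpha subunit and several alternative transcripts, and it has more than 1 control region. The gene table of GRCm38.p6 gives 4 starts for Gnas that spread over 45.7 kb, so a zone of 10 kb around a single point cannot cover them. No call lay in that zone. A KAP1 peak on chromosome 2 from 174121168 to 174121808, 18.2 kb below the point, scored 125.7 (percentile 61.7). This was lower than the nearest peak at each of the 6 points with KAP1 within 10 kb. It lay wholly inside the broadest H3K9me3 region of the locus, 5497 bp wide with a score of 382 (percentile 97.0), near its lower end. Another H3K9me3 region of 2721 bp (score 232, percentile 92.5) ended 27.6 kb below the point without KAP1. The 3 regions above the point were narrower, with scores of 36, 57 and 16.

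H19, a noncoding RNA expressed from the maternal copy whose control region insulates Igf2 from shared enhancers, had no call near its point and only 1 within 100 kb. That H3K9me3 region of 2454 bp (score 209, percentile 91.3) lay 90.2 kb above the point, on chromosome 7 from 149855163 to 149857616. The nearest KAP1 peak was 108.6 kb from the point and scored 107.2 (percentile 50.9).

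Kcnq1ot1 is a long noncoding RNA that starts at a control region inside an intron of Kcnq1, is transcribed from the unmethylated paternal copy and silences its neighbours in cis. No call of either list was made within 40 kb of its point, and the nearest KAP1 peak was 402.9 kb away (score 74.44, percentile 9.4). Farther out stood the largest group of H3K9me3 regions at any of the 10 loci, 13 regions on chromosome 7 between 150402735 and 150440932. They lay from 40.1 to 78.3 kb below the point and covered 20.5 kb of the 38.2 kb between their ends (53.7%). The broadest were 6056 bp (score 496, percentile 98.3), 4740 bp (score 392, percentile 97.2) and 4185 bp (score 347, percentile 96.3), and the other 10 were 280 to 1090 bp wide. None of the 13 held KAP1. They all lay on the lower side, which in GRCm38.p6 is the side toward which Kcnq1ot1, 83.4 kb long there, is transcribed. Whether they lie inside the transcript in mm9 was not determined. Windows of 200 kb with 13 or more H3K9me3 regions made up 1.47% of the genome. That cut-off was the Kcnq1ot1 count itself, the highest of the 10 loci. Several of the 13 lay less than 1 kb apart, so this count depends on how calls were split.

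The KAP1 peaks at the points scored above most of their list. The peak nearest to the point at Peg3, Mest, Grb10, Zrsr1, Airn and Meg3 scored between 197.5 and 592.7, with a median of 316.3, against a median of 106.1 over the whole list and 135.0 over its peaks with H3K9me3. All 6 lay between percentiles 80.4 and 97.3. The other peaks of Zrsr1 lay below the list's median. With them included, the 8 KAP1 peaks within 10 kb of a point had a median score of 279.2 (range 79.83 to 592.7). H3K9me3 regions within 10 kb of a point had a median score of 92.5 (range 32 to 339, 14 regions), and those in the flanks a median of 66 (range 16 to 496, 34 regions), against 53 over the whole list. Across the H3K9me3 list the score tracks region width (Spearman's rho of 0.987 over 39526 regions, which are not replicates), so broad regions rank high. In the KAP1 list score and width were also related, less closely (rho of 0.640 over 19549 peaks). Scores of both lists are the authors' own, and what they measure is not given. The lowest score was 70 in the KAP1 list and 11 in the H3K9me3 list. Whether weaker calls were left out is not given.

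**Figure D3:**
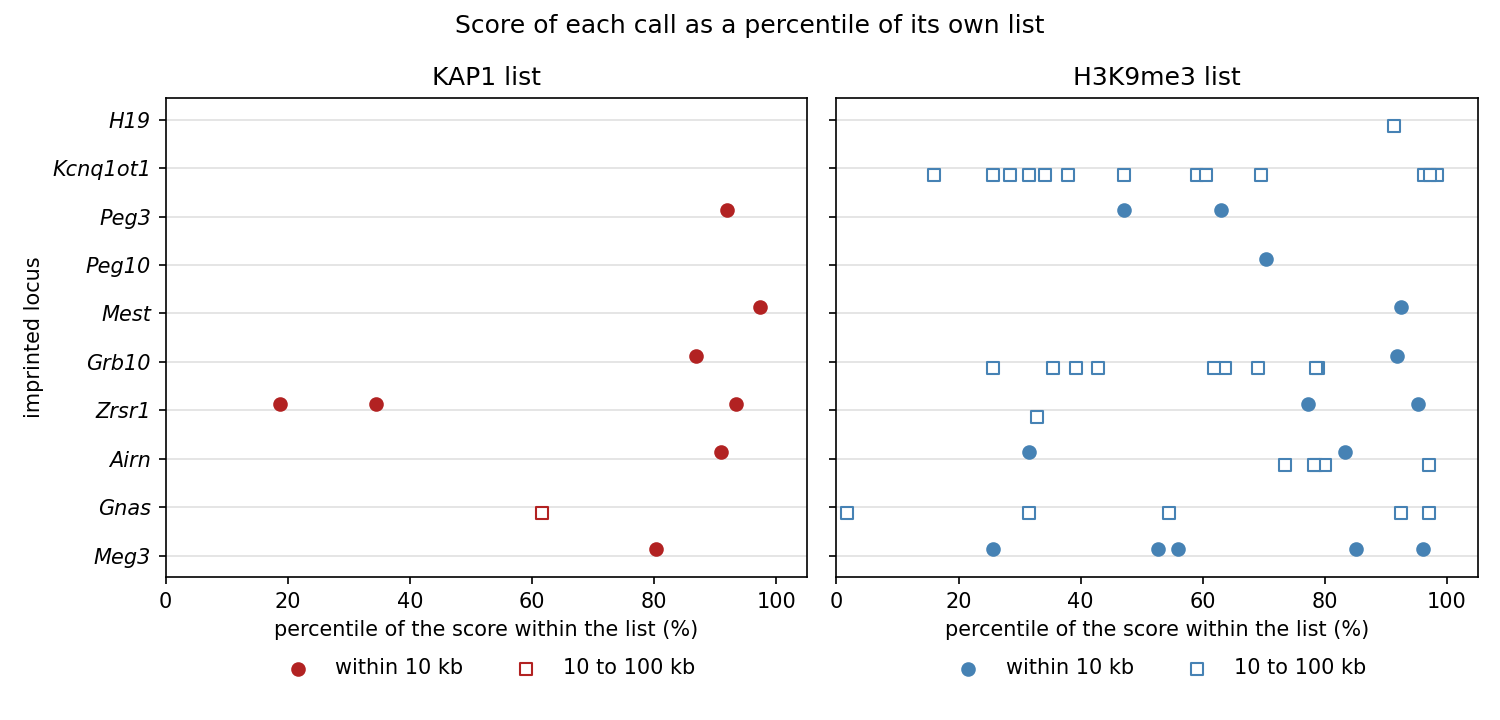
Score of each call at the 10 loci as a percentile of its own list (x axis, %), with KAP1 on the left and H3K9me3 on the right; filled circles lie within 10 kb of the point and open squares from 10 to 100 kb. The KAP1 peaks nearest to the 6 points fall between 80.4 and 97.3, and the H3K9me3 calls run from percentile 25.6 to 96.1 near the Meg3 point and from 15.9 to 98.3 in the flank of Kcnq1ot1.

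Overlap of the lists was then counted over all members. Of the 9 KAP1 peaks, 6 overlapped an H3K9me3 region by at least 1 bp (66.7%, 95% Wilson interval 35.4 to 87.9), where 44.1% of the whole KAP1 list did, a share inside that interval. The 3 without overlap were the Peg3 peak and both weaker Zrsr1 peaks. Of the 6 overlapping peaks, 5 were fully covered, against 52.5% of overlapping peaks in the whole list, and that of Airn was covered in part. Within 10 kb of the point an overlapping pair stood at 5 of the 10 loci (Mest, Grb10, Zrsr1, Airn and Meg3), against 4.19% of 20 kb windows. Counted by H3K9me3 region, 6 of 48 held KAP1 (12.5%, interval 5.86 to 24.7), near the 15.4% of the whole list. They were 5 of the 14 regions within 10 kb of a point and 1 of the 34 in the flanks, the Gnas region. Peaks and regions of a locus are neighbours and not independent, and the intervals cover counting error only.

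KAP1 calls were dense near the points and sparse in the flanks. Within 10 kb of the points lay 8 KAP1 peaks, or 40.0 per Mb, which is 5.28-fold the 7.57 per Mb of the whole list (exact 95% Poisson interval of the ratio 2.28 to 10.4). Zrsr1 alone held 3 of these 8 peaks, 1 of them lying mostly beyond the 10 kb limit, and the ratio without that locus was not computed. From 10 to 100 kb lay a single peak, that of Gnas, or 0.0733-fold the density of the whole list (interval 0.00186 to 0.409). The ratios moved with the size of the zone: with 5 kb in place of 10 kb KAP1 stood at 7.92 near the points and 0.208 in the flanks, and with 20 kb at 2.97 and 0. H3K9me3 regions numbered 14 within 10 kb, 4.57-fold the density of their list (interval 2.50 to 7.67), and 34 in the flanks, 1.23-fold (interval 0.854 to 1.72). Meg3 held 5 of the 14. The Kcnq1ot1 block made up 38.2% of the flank regions. Without that locus the ratio for the flanks was 0.846 (interval 0.524 to 1.29), so both intervals include 1. Among the 9 KAP1 peaks, 6 had no other KAP1 peak within 100 kb, all but those of Zrsr1, against 16.1% of the whole list.

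Over 200 kb, the presence of calls at the loci was close to the background. KAP1 was present within 100 kb of 7 of the 10 points, where 61.1% of 200 kb windows held a peak. H3K9me3 was present at all 10, where 83.6% of windows held a region. The locus with the most KAP1 peaks, Zrsr1, had 3 against a median of 1 per window, and H3K9me3 ran from 1 region at H19, Peg10 and Mest to 10 at Grb10 and 13 at Kcnq1ot1 against a median of 2.

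**Figure D4:**
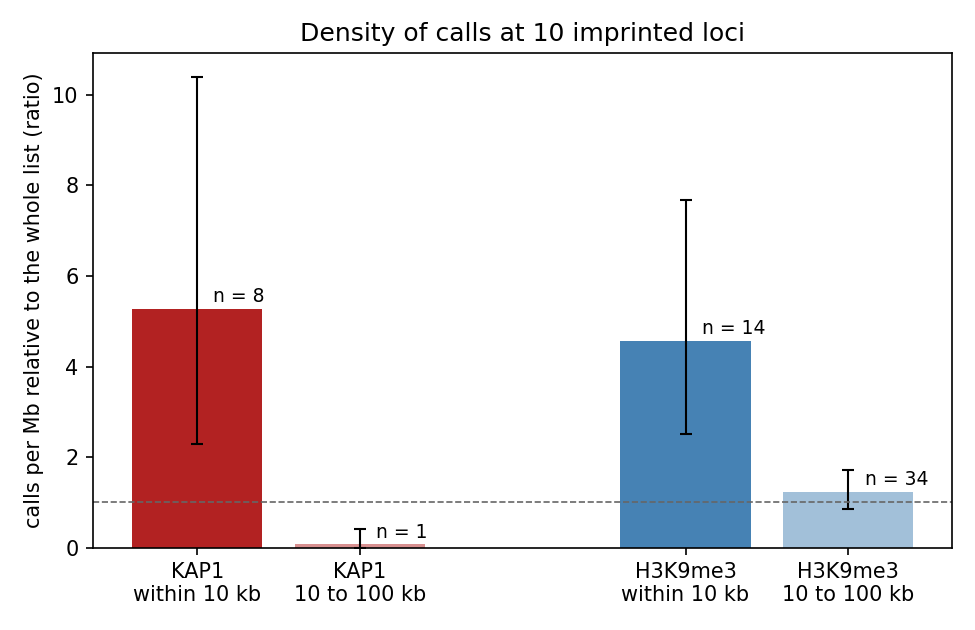
Calls per Mb at the 10 loci divided by the density of the whole list (y axis, ratio), for KAP1 (red) and H3K9me3 (blue) within 10 kb of the points and from 10 to 100 kb; bars are the ratios, error bars exact 95% Poisson intervals for counting error, n the number of calls, and the dashed line marks a ratio of 1. KAP1 stands at 5.28 near the points and 0.0733 in the flanks, and H3K9me3 at 4.57 and 1.23.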

How the data were processed

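KAP1 and H3K9me3 ChIP-seq lists of proliferating C2C12 cells were analysed, 1 library each. The submitters' processing notes name Bowtie2 2.2.1 and mm9. Caller settings and any control are not given in those notes or labels. The score of each region is the one the authors deposited, with peak names of the MACS form in the KAP1 list; its kind is not stated, so scores were compared only within a list. No mm9 annotation was used here.

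Points and limits (10 and 100 kb) came from a rule stated in mm9 to the nearest 1 to 10 kb, and were not checked against an annotation of that build. Members, lists and alternatives were chosen with earlier results of these data known. All 10 loci are named, each with its regions near the point, its nearest region of each list and the strongest in the flanks. A region counted when any base lay within the limit and overlap needed 1 bp. Background came from 20 kb and 200 kb windows tiling each chromosome between its first and last called base. Assembly gaps inside these bounds were not removed. Depth is not given, so no detection limit was set. No test was run. Interval functions were tested on simulated data. Python 3.11.15, numpy 2.4.6, pandas 2.3.3, scipy 1.17.1 and matplotlib 3.10.9 were used.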

Additional observations from a re-analysis of the deposited data

How the results depend on the processing

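The number of points with both calls within 10 kb stayed between 5 and 7 of 10 under the 6 alternatives run (5 kb, 20 kb, midpoints, the upper 50% of either list by score, and a required overlap). At 20 kb Gnas was added, and with required overlap Peg3 dropped out. Of the 40 alternatives over 7 results, 34 stayed within 1.5 times the count or within the interval of the ratio. Overlap counts were judged without their totals, so a share could move while its count did not. H3K9me3 regions with KAP1 were 6 of 29 within 50 kb and 6 of 31 in the upper 50% of H3K9me3, higher shares than 6 of 48. Some alternatives could not change a count: the same 9 KAP1 peaks lay within 50 kb. Leaving out Gnas or Kcnq1ot1 removed no call near the points. The intervals of the ratios are wide, so KAP1 values near the points of 2.97 and 7.92 both counted as unchanged. Allowing a gap of 1 kb, 10 of 48 H3K9me3 regions had a KAP1 peak, since regions beside the Peg3, Airn and Zrsr1 peaks then count. The share of the whole list at that gap was not computed, and the 15.4% for overlap is not its background. Within 200 kb of the points, 10 of 21 KAP1 peaks overlapped H3K9me3. For KAP1 in the flanks the ratio was 0 with a zone of 20 kb and 0 without the Gnas locus, because the only flank peak is that of Gnas. For KAP1 near the points it was 7.92 with 5 kb, 2.97 with 20 kb and 7.92 in the upper 50% by score, and in the flanks 0.208 with 5 kb and 0.147 in the upper 50%. For H3K9me3 the ratio near the points was 8.49 with a zone of 5 kb and 3.10 with 20 kb. It was 7.18 in the upper 50% by score and 4.10 with calls merged within 1 kb (11 regions). In the flanks the H3K9me3 ratio was 1.03 with calls so merged (25 regions). Without Kcnq1ot1, an alternative chosen after seeing the data, it was 0.846 there. No paired analysis was possible because each antibody has 1 library, and no replicate could be left out. Unknown depth limits what a missing call at H19, Kcnq1ot1 or Peg10 can show.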
